A study of Mus musculus with 24 samples.

Results

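Arc, Npas4, Homer1, Nptx2, Nptx1, Inhba, Vgf, Rheb, Dusp1 and Nrn1 were taken by symbol from the 54235 features of the deposited matrices, and each of the 10 symbols matched 1 feature. They are described here across the cell classes of mouse motor cortex and dorsal striatum, across training stages, between hemispheres and between neurons with and without a reporter of past activity. The study used TRAP mice, in which 4-hydroxytamoxifen (4-OHT) lets an activity-dependent Cre switch on the red fluorescent reporter of the Ai9 allele permanently. Fos-CreER::Ai9 mice were used for primary motor cortex and Arc-CreER::Ai9 mice for dorsal striatum, so region and driver line cannot be told apart, and in the striatum the driver is Arc itself. Early mice had 2 days of training in forelimb reaching and late mice 8 days. Control mice received 4-OHT and no training, and all groups were collected 3 days after labelling. Ages are not given in the sources used here. Tissue was digested with papain, and each hemisphere was pooled over 2 mice, a male and a female, which gave 24 libraries from 12 pools. Each region and stage had 2 pools, and the pool is the replicate throughout.

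These genes follow neuronal activity at different steps. Calcium entry through synaptic receptors and voltage-gated channels activates kinases that phosphorylate transcription factors already present, among them CREB, and a first wave of genes is transcribed within minutes. Npas4 and Arc belong to that wave, whereas the pentraxins, activin, neuritin and neurosecretory proteins act outside the cell on receptors, spines and neurites. In cortex such genes are known for linking experience to synapse strength, and in striatum for responses to dopamine and glutamate.

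Of the 24 libraries, 23 matrices were read. For striatal control replicate 1 the right hemisphere was not analysed here, so that pool rests on 1 hemisphere. In cortical control replicate 1 the left hemisphere gave 467 kept cells and the right 4219, so that pool rests mostly on the right. Totals ran from 5260446 to 30470621 unique molecular identifiers (UMIs, each a counted transcript) per library. After filtering, 47985 cortical and 50627 striatal cells were kept, with library medians of 1967 to 5520 UMIs a cell. Barcode lists of 2 libraries overlapped by at most 148 barcodes, which was 1.48% of the smaller list, and by at most 1.55% of the smaller list (133 barcodes, another pair). Barcode sharing also split the pools into 2 classes, A and B, which shared 0.0236 barcodes per 1e6 pairs of barcodes over all pairs of libraries between classes, against 1.34 within A and 0.263 within B. Class A held replicate 1 of control and of late in each region (4 pools), and class B the other 8. The labels name kit versions 2 and 3 without saying which library had which. No early pool was in class A, and the stage tests carry the class as a covariate.

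Where a reference window was held, the sequence before the transcription start shows which members carry the letters that CREB and related factors bind. The RefSeq table (GRCm38.p6) gave windows for 5 of the 10 members, namely Dusp1, Homer1, Inhba, Npas4 and Rheb. The core TGACG, or CGTCA on the other strand, lay in the 250 bases before a start in 4 of these 5, Inhba being the exception. Of 32851 such windows in the table, 17.8% held it. Bases inside annotated exons are not shown. The sequences of Dusp1 and Homer1 are shown for their 3 matches each and that of Inhba for having none. They read 5′ to 3′ on the gene's own strand, and capitals mark the core on either strand.
Dusp1, chr17:26508520-26508722, minus strand: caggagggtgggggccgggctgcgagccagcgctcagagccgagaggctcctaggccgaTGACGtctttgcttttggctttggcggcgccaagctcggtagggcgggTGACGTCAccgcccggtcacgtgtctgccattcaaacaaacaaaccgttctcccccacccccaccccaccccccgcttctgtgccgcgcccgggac
Homer1, chr13:93303507-93303756, plus strand: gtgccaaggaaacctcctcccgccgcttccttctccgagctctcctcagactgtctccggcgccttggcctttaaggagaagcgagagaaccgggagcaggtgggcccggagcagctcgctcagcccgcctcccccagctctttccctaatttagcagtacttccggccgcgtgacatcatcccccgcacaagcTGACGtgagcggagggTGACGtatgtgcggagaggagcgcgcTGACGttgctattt
Inhba, chr13:16011601-16011850, plus strand: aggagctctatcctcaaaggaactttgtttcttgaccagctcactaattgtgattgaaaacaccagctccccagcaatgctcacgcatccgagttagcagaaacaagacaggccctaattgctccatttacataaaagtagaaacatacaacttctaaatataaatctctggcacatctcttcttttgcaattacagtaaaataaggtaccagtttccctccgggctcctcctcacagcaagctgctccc

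The core began 191, 143 and 140 bases before the Dusp1 start, and the matches at 143 and 140 overlap as the full palindrome TGACGTCA. That palindrome lay in 1.55% of all windows and in no other member's. In Homer1 the cores began 56, 40 and 14 bases before the start, and its other listed start had none. Npas4 had cores at 179 and 169 bases and Rheb at 247, inside annotated exons. TCGTG, read on both strands and the core bound by NPAS4 with its partner ARNT, lay in the Rheb window alone among these and in 13.3% of all windows. TATAAA, read on both strands, lay in the Inhba window alone, against 12.4% of all. The CArG box bound by serum response factor was in none of the members' windows and in 1.47% of all. A match is a description of letters and not evidence of binding.

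Cell classes were called by clustering without the members or other activity and dissociation genes, and each name stands for cells like that type by their markers. Levels are a member's UMIs as a share of all UMIs of a class in a pool, on the usual CPM scale, as mean ± SD over pools. They are descriptions with no test, because cells were grouped by expression. RNA released by damaged cells is counted in every droplet. As a yardstick, the summed projection neuron markers reached 1.80% of their projection neuron level in cortical oligodendrocyte precursors and 2.52% in striatal microglia. In cortical endothelial cells and pericytes the same sum reached 12.6% and 17.2%, and Arc and Npas4 stood there at 10.4% to 18.4% of their own glutamatergic level, near that background.

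**Figure D1:**
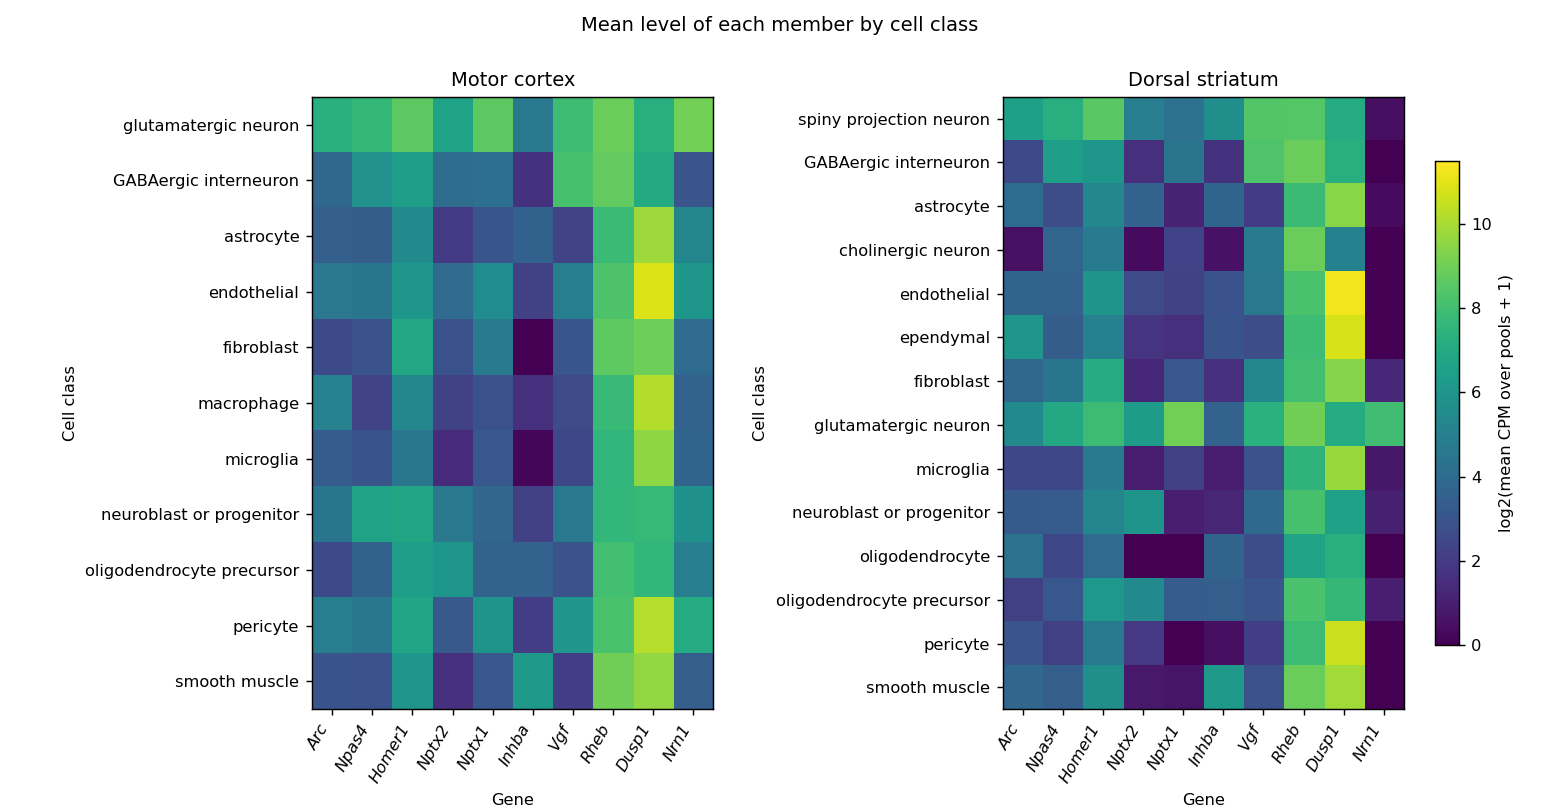
Mean level of each member in each cell class, as log2(mean CPM over pools + 1) by colour, with cortex on the left, striatum on the right and projection neurons in the top row. Arc, Npas4 and Homer1 are brightest in projection neurons (156.6, 204.0 and 389.0 CPM in cortex), Dusp1 in endothelial cells (1917 and 2461 CPM), and Nrn1 is dark in every striatal class but the few glutamatergic neurons.

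Arc (ENSMUSG00000022602, GRCm38 chr15:74669083-74672570, minus strand) encodes a protein that recruits endocytic machinery to remove AMPA receptors from synapses. Its level was 156.6 ± 35.8 CPM (SD, n = 6) in cortical glutamatergic neurons and 90.0 ± 21.5 CPM (SD, n = 6) in striatal spiny projection neurons, the highest class of each region. GABAergic interneurons stood at 13.7 ± 4.27 CPM in cortex and 4.87 ± 1.64 CPM in striatum, which were 8.73% and 5.41% of the projection neuron level beside marker backgrounds of 3.48% and 5.47%. Cholinergic neurons held 2 Arc UMIs in all 6 pools. Ependymal cells, which line the ventricle, were the one non-neuronal class of 6 pools near the spiny neurons, at 63.7 ± 12.8 CPM (SD, n = 6). The 6 pools there ranged from 40.8 to 78.8 CPM, on 216 UMIs in 960 cells. This was 70.8% of the spiny level, while the projection neuron markers were at 2.37% of theirs.

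D2 neurons, the indirect-pathway spiny neurons, had more Arc than D1 neurons, those of the direct pathway, in all 6 pools. The means were 127.4 ± 30.1 and 51.5 ± 16.5 CPM (SD, n = 6), and the within-pool difference was 1.32 ± 0.39 (SD, n = 6) in log2(CPM + 1), from 0.95 to 2.05. Eccentric spiny neurons, with 70.6 ± 10.4 CPM (SD, n = 4), lay between these. In cortex, layer 6 corticothalamic neurons had 166.8 ± 37.97 CPM, layer 2/3 neurons 114.3 ± 15.0, near-projecting neurons 77.6 ± 11.8 and layer 6b neurons 71.2 ± 16.7 (SD, n = 6 each). Layer 2/3 was below layer 6 corticothalamic and above near-projecting in all 6 pools. The last pair, near-projecting and layer 6b, overlapped in range. The 1% of spiny neurons with the most Arc UMIs held 12.97% to 16.9% of those of a pool, and the 1% of glutamatergic neurons 6.01% to 8.85%. These shares use unthinned counts, so they also depend on the mean count and on cell depth. Unevenness beyond that was not tested. In cortex the median share was 6.99% for Arc, 7.05% for Dusp1 and for Nrn1, and from 4.68% (Rheb) to 23.5% (Inhba) over the members.

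Npas4 (ENSMUSG00000045903, chr19:4984355-4990316, minus strand) encodes a transcription factor of neurons that is induced by calcium entry and acts on inhibitory synapse genes. Its level was 204.0 ± 46.2 CPM in cortical glutamatergic and 146.8 ± 36.4 CPM in spiny projection neurons (SD, n = 6 each). Interneurons had 82.3 ± 30.7 CPM in striatum and 56.3 ± 17.2 CPM in cortex (SD, n = 6 each), 56.1% and 27.6% of the projection neuron level beside marker backgrounds of 5.47% and 3.48%. Striatal somatostatin interneurons had 108.9 ± 42.6 CPM and striatal parvalbumin interneurons 36.9 ± 7.35. Cholinergic neurons had 12.3 ± 9.09 CPM.

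The order of subclasses was not that of Arc. Npas4 was lower in D2 than in D1 neurons in all 6 pools, 121.7 ± 28.4 against 174.0 ± 48.4 CPM, a within-pool difference of -0.50 ± 0.11 (SD, n = 6). Layer 6 corticothalamic neurons had 277.4 ± 52.5 CPM and exceeded layer 2/3 neurons, with 120.5 ± 26.8, in all 6 pools. Near-projecting (122.8 ± 42.4 CPM) and layer 6b neurons (114.8 ± 29.9 CPM) could not be separated from layer 2/3 beyond their spread.

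**Figure D2:**
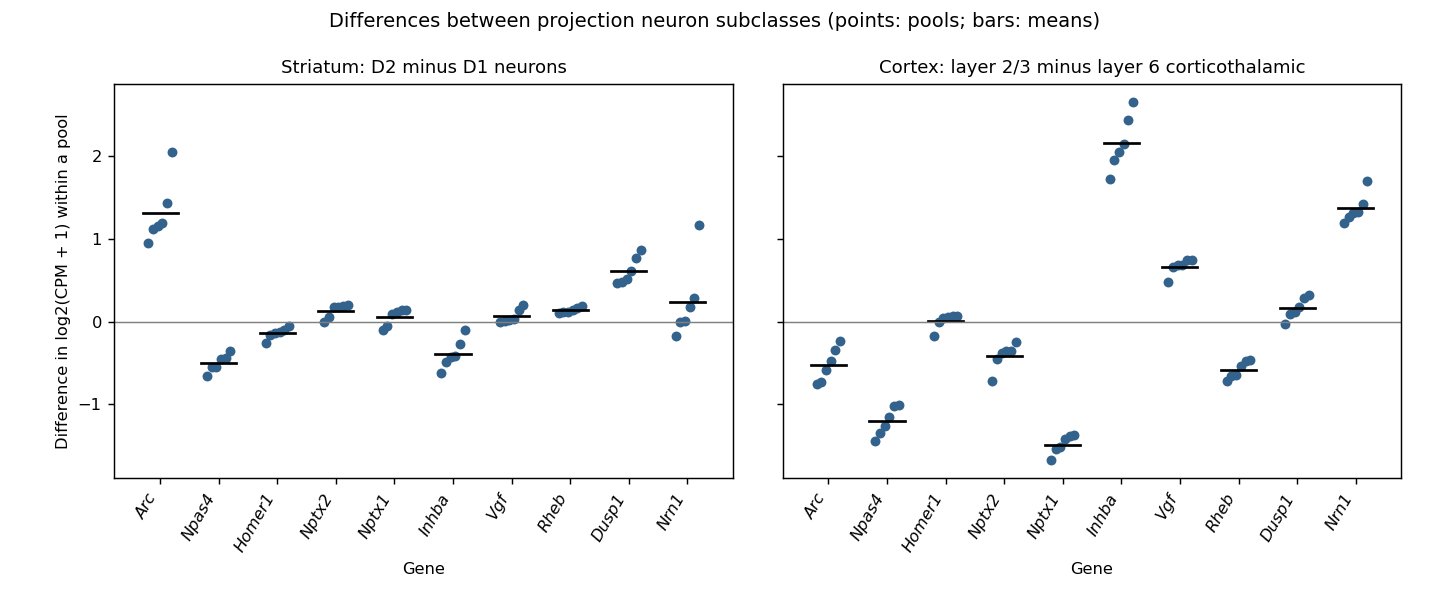
Difference in log2(CPM + 1) between subclasses of projection neurons within a pool, 6 points a gene, 1 for each pool, with bars at the means. On the left, D2 minus D1 neurons, Arc, Dusp1 and Rheb lie at least 0.95, 0.46 and 0.109 above 0 in all 6 pools. Nptx2 and Vgf also lie above 0 in all 6, by as little as 0.001, and Npas4, Homer1 and Inhba lie below 0 in all 6. On the right, layer 2/3 minus layer 6 corticothalamic neurons, Inhba, Vgf and Nrn1 lie above 0 and Arc, Npas4, Nptx2, Nptx1 and Rheb below 0 in all 6 pools.

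Arc and Npas4 were counted in overlapping sets of striatal cells. With every neuron thinned to 1000 UMIs, spiny neurons that kept an Arc UMI (1713 of 21736) had 267.5 CPM of Npas4, and the others 151.5 CPM. The ratio lay above 1 in all 6 pools, from 1.45 to 2.12. For Dusp1 the same cells had 237.9 against 114.4 CPM, with ratios of 1.82 to 2.66. In cortical glutamatergic neurons the ratios for Npas4 ran from 0.99 to 1.31, and 5 of 6 exceeded 1. Cortical neurons with an Npas4 UMI had 119.7 against 86.0 CPM of Nptx2, with ratios of 1.32 to 1.52 over 6 pools. For Nptx2 in neurons with an Inhba UMI, ratios were 1.995 to 4.89 in cortex and 1.20 to 3.05 in striatum. These are some of the pairs of members, and others went the other way. Spiny neurons with an Arc UMI had 39.5 against 52.3 CPM of Inhba, with 1 of 6 ratios above 1. These ratios share their cells and subclass makeup, and are given as descriptions.

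Homer1 (ENSMUSG00000007617, chr13:93299635-93405129, plus strand) encodes a scaffold that ties metabotropic glutamate receptors to the postsynaptic density. Activity induces a short form that uncouples them, and the counts here do not separate the forms. The gene model overlaps Gm47075 and Gm47088 on the same strand, so part of the count is uncertain. Homer1 stood at 389.0 ± 66.0 CPM in glutamatergic and 378.5 ± 87.3 CPM in spiny neurons (SD, n = 6 each). Among cortical subclasses, near-projecting neurons had 163.9 ± 26.3 CPM against 438.3 ± 74.2 in layer 2/3 and 437.2 ± 87.5 in layer 6 corticothalamic neurons, lower in all 6 pools in both comparisons. Oligodendrocyte precursors, a class of glia, had 86.4 ± 12.1 CPM in cortex and 70.0 ± 26.5 CPM in striatum. They did not stand out, since GABAergic interneurons had 86.4 ± 12.65 and 67.7 ± 15.3 CPM. Fibroblasts had higher means, 119.0 ± 24.5 and 137.7 ± 83.3 CPM (SD, n = 6 each), beside marker backgrounds of 3.67% and 10.5%.

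Nptx2 (ENSMUSG00000059991, chr5:144545902-144557478, plus strand) and Nptx1 (ENSMUSG00000025582, chr11:119538719-119547753, minus strand) encode secreted neuronal pentraxins that cluster AMPA receptors, and Nptx2 is the activity-induced member of the pair. Nptx2 was 100.5 ± 17.4 CPM in glutamatergic neurons (SD, n = 6). Near-projecting neurons stood apart, with 20 UMIs in 6 pools, 3.41 ± 3.60 CPM, against 90.6 ± 13.8 in layer 2/3 and 121.4 ± 17.8 in layer 6 corticothalamic neurons. Vip interneurons had 30.3 ± 9.63 CPM, and the cortical cluster named somatostatin, 1 cluster led by Sst, Crhbp and Nos1, had 2 UMIs, 1.85 ± 3.70 CPM (SD, n = 4, 109 cells). Another 3 cortical clusters led by Sst, of 207, 151 and 100 cells, have no subclass name and are not in this value. In striatum, spiny neurons had 29.6 ± 6.64 CPM, with 33.4 ± 7.69 in D2, 30.3 ± 6.62 in D1 and 4.03 ± 3.20 (SD, n = 4) in eccentric neurons.

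Outside projection neurons, Nptx2 was at 65.4 ± 13.6 CPM in cortical and 43.1 ± 9.63 CPM in striatal oligodendrocyte precursors, 65.1% and 145.7% of the projection neuron level, beside marker backgrounds of 1.80% and 4.18%. Striatal neuroblasts and progenitors had 60.7 ± 16.8 CPM (SD, n = 6), on 1540 UMIs. Their lowest pool was 49.45 CPM, above the highest spiny neuron pool of 38.5 CPM.

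Nptx1 followed another pattern. Layer 6 corticothalamic neurons had 653.0 ± 48.4 CPM and layer 6b neurons 603.8 ± 53.0, against 301.1 ± 22.7 in near-projecting and 233.0 ± 21.4 in layer 2/3 neurons (SD, n = 6 each). The 6 pools of either deep subclass lay above the 6 of the others. Spiny neurons had 18.6 ± 2.95 CPM, and the eccentric subclass 67.9 ± 10.1 (SD, n = 4). The same cortical somatostatin cluster had 96.5 ± 46.5 CPM (SD, n = 4), and striatal somatostatin interneurons 35.8 ± 9.80 (SD, n = 6).

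Inhba (ENSMUSG00000041324, chr13:16011851-16031621, plus strand) encodes the beta-A subunit of activin, a secreted ligand that protects neurons and acts on spines. B230303A05Rik and Gm48444 overlap it on the opposite strand. Smooth muscle cells had the highest class mean in both regions, 72.0 ± 35.8 CPM in cortex and 74.1 ± 18.4 in striatum (SD, n = 6 each), followed by spiny neurons with 51.6 ± 6.02 and glutamatergic neurons with 24.5 ± 2.09. Among the named subclasses of glutamatergic neurons, layer 2/3 had 33.8 ± 8.01 CPM against 6.82 ± 1.66 in layer 6 corticothalamic neurons, higher in all 6 pools. Of the 3693 glutamatergic UMIs, 980 lay in layer 2/3, 288 in layer 6 corticothalamic and 34 in layer 6b neurons, and most of the rest in clusters without a subclass name. Near-projecting neurons held 1 UMI in 6 pools. D1 neurons exceeded D2 neurons in all 6 pools, 62.2 ± 4.63 against 47.8 ± 8.25 CPM.

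Vgf (ENSMUSG00000037428, chr5:137026392-137033351, plus strand) encodes a precursor of secreted neuropeptides. Its levels in interneurons, 286.8 ± 68.7 CPM in cortex and 318.4 ± 75.4 in striatum, overlapped those in glutamatergic neurons, 239.3 ± 52.8, and spiny neurons, 342.8 ± 75.0 (SD, n = 6 each). Striatal somatostatin interneurons (502.5 ± 161.3 CPM, n = 6) and eccentric spiny neurons (499.9 ± 29.2 CPM, n = 4) had the highest subclass means. Cholinergic neurons had 24.6 ± 10.3 CPM.

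Nrn1 (ENSMUSG00000039114, chr13:36725361-36735131, minus strand) encodes neuritin, a membrane-anchored protein that promotes neurite growth and synapse maturation. Fars2 and Gm30177 overlap it on the opposite strand. It was 524.7 ± 33.7 CPM in cortical glutamatergic neurons and 0.38 ± 0.36 CPM in spiny neurons (SD, n = 6 each), the latter from 31 UMIs in 21736 cells. Striatal GABAergic interneurons had 0 UMIs in 1877 cells, which allows up to 0.207 CPM for counting error only (3 counts over the 6 pools). The few glutamatergic neurons of the striatal dissections (192 cells) had 253.7 ± 48.4 CPM (SD, n = 4). Near-projecting (671.4 ± 48.6 CPM) and layer 2/3 neurons (592.7 ± 68.7) lay above layer 6 corticothalamic (228.5 ± 18.5) and layer 6b neurons (107.8 ± 4.25) in all 6 pools.

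Rheb (ENSMUSG00000028945, chr5:24802823-24842624, minus strand) encodes a small GTPase that activates the growth kinase complex mTORC1, and it was detected in every class. Its class means ran from 96.3 ± 23.6 CPM (SD, n = 4) in striatal oligodendrocytes to 519.1 ± 55.2 (SD, n = 4) in striatal glutamatergic neurons. Glutamatergic neurons had 466.3 ± 61.9 CPM in cortex and spiny neurons 354.0 ± 49.3 in striatum (SD, n = 6 each). Layer 2/3 neurons, at 358.5 ± 61.3 CPM, were below layer 6 corticothalamic neurons, at 533.8 ± 65.8, in all 6 pools.

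Dusp1 (ENSMUSG00000024190, chr17:26505590-26562128, minus strand) encodes a nuclear phosphatase that switches MAP kinases off, and it is induced by stress and by tissue dissociation as well as by activity. AC122252.4 and AC122252.1 overlap it on the same strand and Gm8225 and Ergic1 on the opposite strand. Non-neuronal classes had the highest means, among them 2461 ± 293 CPM in striatal and 1917 ± 672 CPM in cortical endothelial cells, 1809 ± 178 in ependymal cells and 1166 ± 151 in macrophages (SD, n = 6 each). Glutamatergic neurons had 154.1 ± 23.8 CPM and spiny neurons 132.2 ± 25.4. D2 neurons, with 165.8 ± 34.7 CPM, exceeded D1 neurons, with 107.2 ± 19.8, in all 6 pools, and cholinergic neurons had 31.8 ± 10.0.

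The genes whose mean log2(CPM + 1) over 25 class and region pairs was most like that of each member were ranked by Pearson's r among 15932 genes, as a description over points that share libraries. For Nrn1 these were Slc17a7 (r = 0.97), the vesicular glutamate transporter, Neurod2 and Trbc2. Npas4 was most like Dlgap2 (r = 0.95), Ensa and Fam163b, and Arc like Cckbr (r = 0.84), Itpka and Kcns1. Homer1 came closest to Chrm1, Egr4 and Gm10115, Nptx2 to Nell2, 2900079G21Rik and Med10, and Nptx1 to Fxyd7, Ipcef1 and Rtn4r. For Vgf the list was Gm27032, Kcns2 and Gm42767, for Rheb Rusc1 and Med14, and for Dusp1 Csrnp1 (r = 0.93) and Fmo5. Inhba had no gene above r = 0.81, its nearest being 1110018N20Rik, Myo18a and 1700120C14Rik.

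Training stage was compared in each class with edgeR's quasi-likelihood test over the 6 pools of a region, and a gene is called where its Benjamini-Hochberg adjusted p over all genes of that class is under 0.05. With 2 pools a stage and 2 residual degrees of freedom before the spread is shared between genes, only large or very even differences can pass. The p-values measure the spread between pools of mice. No member was called in any of 10 cortical or 11 striatal classes. In cortex 0 of 68 member and class pairs were called in each comparison, against 0.00775% of all tested pairs for early against control, 0.0587% for late against control and 0.00886% for late against early. Of the 68, 3, 10 and 5 had an unadjusted p under 0.05, or 4.41%, 14.7% and 7.35%, against 3.13%, 4.34% and 2.215% of all pairs. The 10 pairs for late against control were 5 higher and 5 lower. In striatum 0 of 58 pairs were called, against 0.0434%, 0.0212% and 0.0212%, with 5 (8.62%) at an unadjusted p under 0.05 in each comparison, against 5.37%, 6.09% and 6.86% of all pairs. The counts of 0 called are near the shares called among all genes, while the share at an unadjusted p under 0.05 was above that of all genes in each comparison, most so in cortex for late against control. Pairs of 1 region share their pools, and this excess was not tested.

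Arc in glutamatergic neurons was 135.1 and 171.1 CPM in the 2 control pools, 162.5 and 150.6 in the early pools and 213.1 and 107.0 in the late pools. The late pools were the highest and the lowest of the 6. The early against control difference was 0.19 in log2 (SE 0.31, adjusted p = 0.9997), late against control 0.01 (SE 0.29, adjusted p = 0.9975) and late against early -0.175 (SE 0.34, adjusted p = 0.9999). Without a pool in turn these ran from -0.12 to 1.27, from -0.69 to 0.71 and from -0.57 to 0.82. Within the batches named in the labels, late replicate 1 minus control replicate 1 was 0.65 and early replicate 1 minus control replicate 2 was -0.07 in log2(CPM + 1).

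In spiny neurons Arc was 86.4 and 86.9 CPM in control, 55.6 and 100.6 in early and 89.2 and 121.4 in late pools. Early replicate 1 was the lowest and late replicate 2 the highest. Early against control gave -0.24 (SE 0.26, adjusted p = 0.996), late against control 0.31 (SE 0.23, adjusted p = 0.836) and late against early 0.55 (SE 0.25, adjusted p = 0.520). The late against early value depended on the pools kept. Without a pool in turn it ran from 0.185 to 1.03, the highest being without early replicate 2, which leaves a single early pool. With all pools and no filter on low counts it was called (0.56, adjusted p = 0.0135 by edgeR). Within batches, late replicate 1 minus control replicate 1 was 0.05 and early replicate 1 minus control replicate 2 was -0.64.

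Npas4 in glutamatergic neurons was 135.2 and 242.2 CPM in control, 190.9 and 243.6 in early and 169.1 and 242.9 in late pools. The 3 stages overlapped, and so did they in spiny neurons, with 117.1 and 160.3 CPM in control, 154.4 and 172.8 in early and 89.6 and 186.2 in late pools. In cortex the differences were -0.06 for early against control (SE 0.17, adjusted p = 0.9997), 0.18 for late against control (SE 0.15, adjusted p = 0.869) and 0.245 for late against early (SE 0.17, adjusted p = 0.9999), the smallest p among the members there. In striatum they were -0.10 (SE 0.16, adjusted p = 0.996), -0.04 (SE 0.14, adjusted p = 0.971) and 0.06 (SE 0.15, adjusted p = 0.904). Within batches, late replicate 1 minus control replicate 1 was 0.32 in cortex and -0.38 in striatum, and early replicate 1 minus control replicate 2 was -0.34 and -0.05. Without the barcode class as a covariate 5 of these 6 differences changed sign.

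The barcode class moved with Npas4 and 3 other members. Npas4, Homer1, Nptx1 and Vgf were each lower in both class A pools than in all 4 class B pools, in cortical glutamatergic and in spiny neurons alike. For Npas4 the class A pools had 135.2 and 169.1 CPM in cortex and 89.6 and 117.1 in striatum, and the class B pools 190.9 to 243.6 and 154.4 to 186.2. For Vgf, A and B were at 149.1 to 207.1 and 246.3 to 291.0 CPM in cortex, and at 238.6 to 262.2 and 354.3 to 419.5 in striatum. Inhba in cortex had the same order, and Rheb in striatum the opposite order, with both A pools above all B pools. How many of all genes split in this way was not counted, so the split is not shown to be particular to the members. The part of kit, batch and mice in this split cannot be told apart.

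**Figure D3:**
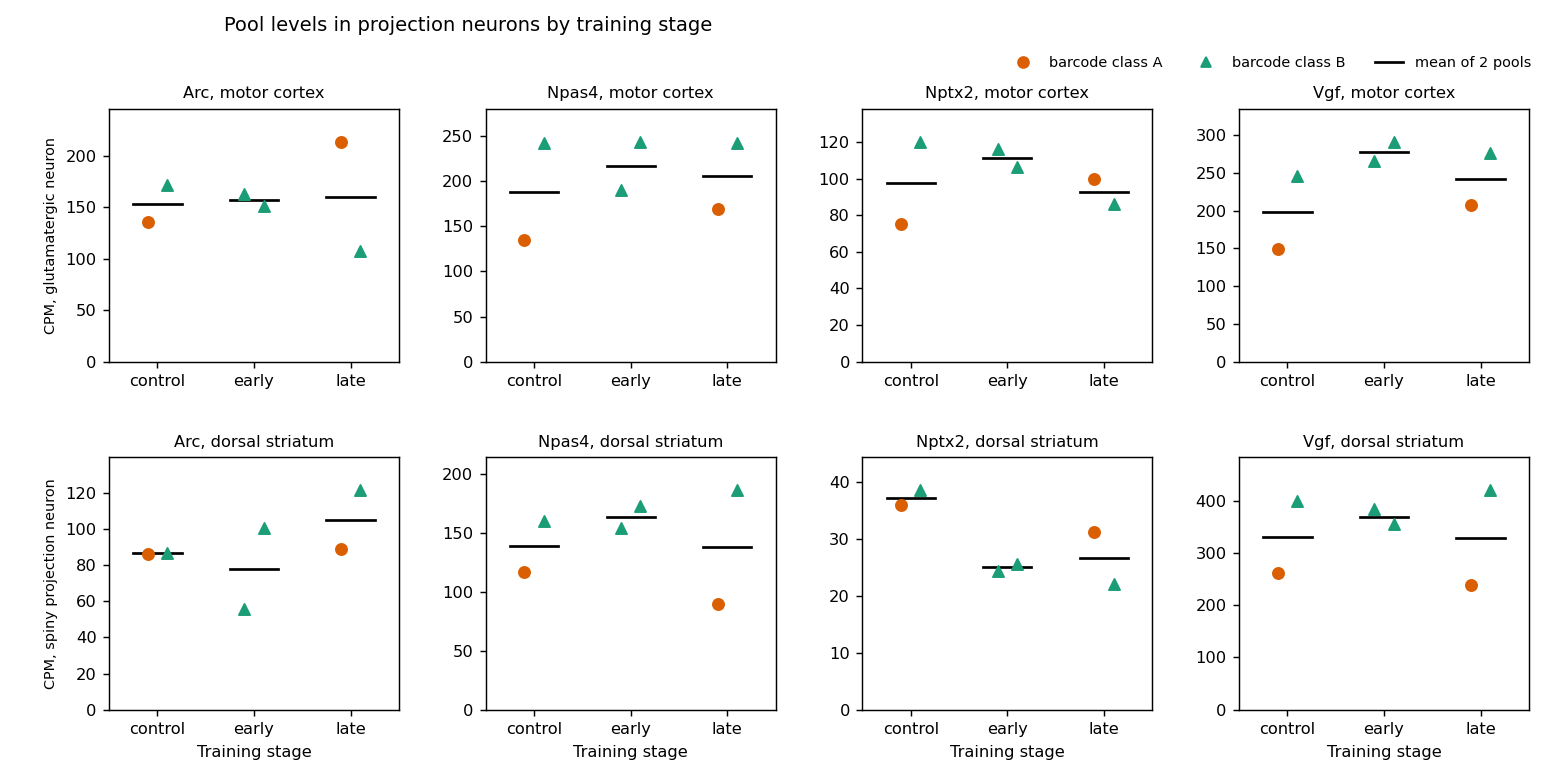
CPM of Arc, Npas4, Nptx2 and Vgf in projection neurons of each pool by training stage, with cortex above and striatum below, circles for barcode class A, triangles for class B and bars at the mean of the 2 pools. Npas4 and Vgf circles lie below all triangles in both regions, and striatal Nptx2 is 35.8 and 38.5 CPM in control against 22.04 to 31.2 CPM in the 4 trained pools.

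Nptx2 had the smallest unadjusted p of the members in spiny neurons for both comparisons with control. It was 35.8 and 38.5 CPM in control, 24.3 and 25.6 in early and 31.2 and 22.04 in late pools, so that control did not overlap the trained pools. The differences were -0.46 (SE 0.17, adjusted p = 0.996) for early and -0.47 (SE 0.16, adjusted p = 0.816) for late against control, and neither was called by edgeR's test. Without a pool in turn the first ran from -0.61 to 0.055 and the second from -0.79 to -0.13. Within batches, late replicate 1 minus control replicate 1 was -0.19 and early replicate 1 minus control replicate 2 was -0.64.

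Vgf led both cortical comparisons with control. Its pools were 149.1 and 246.3 CPM in control, 266.0 and 291.0 in early and 207.1 and 276.1 in late, with an early against control difference of 0.27 (SE 0.14, adjusted p = 0.9997) and a late against control difference of 0.34 (SE 0.13, adjusted p = 0.855 by edgeR). Homer1 had the smallest p for late against early in spiny neurons, at -0.27 (SE 0.12, adjusted p = 0.507 by edgeR).

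Dusp1 in striatal oligodendrocyte precursors came nearest to a call, and is named for that after its values were seen. The control pools had 122.8 and 139.9 CPM, the early pools 261.3 and 212.4 and the late pools 232.2 and 236.0, on 93 to 427 UMIs a pool. All 4 trained pools lay above both control pools. The differences were 0.79 for early (SE 0.19, adjusted p = 0.152) and 0.835 for late against control (SE 0.17, adjusted p = 0.0572 by edgeR). The latter passed with RLE scaling (adjusted p = 0.0479 by edgeR) and with no filter on low counts (adjusted p = 0.00382 by edgeR). It was far from passing without the barcode class (adjusted p = 0.9996), with DESeq2 (adjusted p = 0.9998) and with presumed doublets kept (adjusted p = 0.296). Without a pool in turn the late against control difference ran from 0.77 to 0.92, in fits that each leave a stage with a single pool. Within batches, late replicate 1 exceeded control replicate 1 by 0.91 and early replicate 1 exceeded control replicate 2 by 0.90. In cortical precursors the differences were -0.61 (SE 0.29) and -0.23 (SE 0.29), and the difference between regions was not called (adjusted p = 0.792 for early and 1.0 for late).

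The stage effects of the 2 regions were compared in the 7 classes tested in both. No member and class pair of 51 was called, against 0% of all pairs for early and 0.00755% for late against control, with 4 and 2 pairs (7.84% and 3.92%) at an unadjusted p under 0.05, against 5.99% and 4.82% of all. Other activity-induced genes, a list of 44 such as Fos, Egr1 and Bdnf, likewise had none called in projection neurons. In spiny neurons 1 of 43 tested was higher in early than in control (median -0.27, all genes 0.01), 26 of 43 in late than in control (median 0.03, all genes 0.01) and 39 of 43 in late than in early (median 0.28, all genes 0.005). In glutamatergic neurons these counts were 31, 35 and 26 of 43 (medians 0.09, 0.17 and 0.04, all genes -0.001, -0.010 and -0.008). Each pair of these comparisons shares the pools of 1 stage. Of the 16 dissociation and heat shock genes none was called, and in cortex 16 of 16 were higher for early (median 0.33) and for late (median 0.35) against control and 10 of 16 for late against early (median 0.025). In striatum 4 of 16 were higher for early (median -0.22) and 13 of 16 for late (median 0.12) against control, and 14 of 16 for late against early (median 0.37). Their part in the stage values was not tested.

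Between the hemispheres of trained mice, libraries opposite the trained forelimb were compared with those on its own side, with the pool as a block. In cortex 0 of 49 pairs of member and class were called, against 0.113% of all pairs, and 5 (10.2%) had an unadjusted p under 0.05, against 5.11% of all. In striatum 0 of 43 were called, against 0.0148%, and 3 (6.98%) had an unadjusted p under 0.05, against 3.82% of all. Arc differed by 0.05 (SE 0.04, adjusted p = 0.889) in glutamatergic neurons and by -0.05 (SE 0.06, adjusted p = 0.9999) in spiny neurons. Npas4 differed by -0.05 (SE 0.04, adjusted p = 0.886) and 0.11 (SE 0.06, adjusted p = 0.9999), the smallest p among striatal members. Nrn1 had the smallest p among cortical members, at 0.10 (SE 0.04, adjusted p = 0.542 by edgeR).

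Reporter-positive neurons carried at least 1 UMI of tdtomato or wpre, features of the Ai9 transcript. They made up 13.6% to 29.3% of glutamatergic neurons (3383 of 17500 in all) and 16.1% to 22.1% of spiny neurons (4085 of 21736). Microglia, taken as a class that should lack the reporter, gave 2.51% to 8.93% in cortex and 3.02% to 8.38% in striatum at medians of 1228 to 2742 UMIs a cell. Projection neurons were deeper, at medians of 5275 to 12980 UMIs in cortex and 2522 to 5715 in striatum, which gives stray reporter UMIs more room. A neuron without a reporter UMI may still carry the reporter, and a positive one may hold only a stray UMI, so the groups are mixed. The share of stray positives among neurons was not measured. Positive and negative neurons of a pool come from the same mice, and the pool was the block of the test.

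In spiny neurons 5 of 9 members tested were called, and all 5 were higher in reporter-positive cells, against 0.406% of all genes called. Nptx2 had the largest difference. Its reporter-positive cells held 46.1, 46.0, 32.4, 29.6, 37.2 and 25.0 CPM in control, early and late pools in turn, replicate 1 before replicate 2, and the negative cells 32.9, 36.4, 22.3, 24.8, 29.9 and 21.2. Positive cells were above negative cells of the same pool in 6 of 6 pools, a fitted difference of 0.37 (SE 0.07, adjusted p = 0.000517 by edgeR). Inhba had 60.9 ± 6.0 CPM in positive and 49.1 ± 6.86 in negative cells (SD, n = 6), was higher in 6 of 6 pools and rose by 0.27 (SE 0.05, adjusted p = 0.00197 by edgeR).

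Npas4 in positive spiny neurons was 137.8, 188.9, 177.3, 181.1, 91.45 and 189.4 CPM, in the same order of pools, and in negative ones 111.3, 152.3, 148.7, 171.1, 89.2 and 185.3. The excess was in 6 of 6 pools, smallest in the 2 late pools, with a fitted value of 0.17 (SE 0.03, adjusted p = 0.00212 by edgeR). Arc, the gene whose promoter drives Cre in these mice, was 96.0, 105.3, 61.6, 114.8, 92.2 and 122.3 CPM in positive and 83.6, 81.8, 54.1, 97.6, 88.5 and 121.1 in negative cells. It was higher in 6 of 6 pools by 0.015 to 0.36 in log2(CPM + 1), with a fitted 0.175 (SE 0.04, adjusted p = 0.0194 by edgeR). Dusp1 was higher in 5 of 6 pools (0.15, SE 0.03, adjusted p = 0.0142 by edgeR).

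The remaining members tested in spiny neurons were not called. Nptx1 was 0.20 (SE 0.08, adjusted p = 0.581), higher in 6 of 6 pools, and Homer1, Vgf and Rheb lay between 0.02 and 0.03. Nrn1 had too few UMIs to be tested. Leaving out 1 pool at a time, Nptx2 and Inhba were called each time and 2 to 5 members in all, with 2 called without early replicate 1 and 3 each without control replicate 2 (neither Arc nor Npas4) and without early replicate 2 (neither Arc nor Dusp1). DESeq2 called Nptx2 and Inhba alone. With positive cells defined by 2 UMIs Arc was no longer called (0.16, adjusted p = 0.1455).

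Glutamatergic neurons of cortex gave 4 called members of 10, again all higher in reporter-positive cells, where 8.18% of all genes were called. Nptx2 was 95.9, 124.1, 135.9, 132.0, 104.7 and 95.4 CPM in positive and 68.0, 118.3, 105.6, 101.1, 97.5 and 84.3 in negative cells, in the order of pools above. It was higher in 6 of 6 pools, with a fitted 0.26 (SE 0.04, adjusted p = 3.3e-07 by edgeR). Inhba, with 27.9 ± 3.53 against 23.3 ± 2.04 CPM (SD, n = 6), was higher in 6 of 6 pools by a fitted 0.28 (SE 0.06, adjusted p = 0.00035 by edgeR).

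Nrn1 had 561.6 ± 50.4 against 511.5 ± 28.9 CPM (0.15, SE 0.02, adjusted p = 3.1e-07) and Rheb 485.4 ± 58.4 against 459.6 ± 64.6 CPM (0.10, SE 0.02, adjusted p = 0.000479), both higher in 6 of 6 pools. Arc did not pass, at 154.2 ± 37.1 against 157.0 ± 35.7 CPM, -0.01 (SE 0.03, adjusted p = 0.912), and neither did Npas4, at 205.3 ± 41.6 against 203.1 ± 48.0 CPM, 0.04 (SE 0.03, adjusted p = 0.519). Homer1, Nptx1, Vgf and Dusp1 lay between -0.04 and 0.02. With positive cells defined by 2 UMIs, Nptx1 was called lower and Rheb was not called (0.095, adjusted p = 0.107), while Nptx2 was 0.525 and Inhba 0.64.

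**Figure D4:**
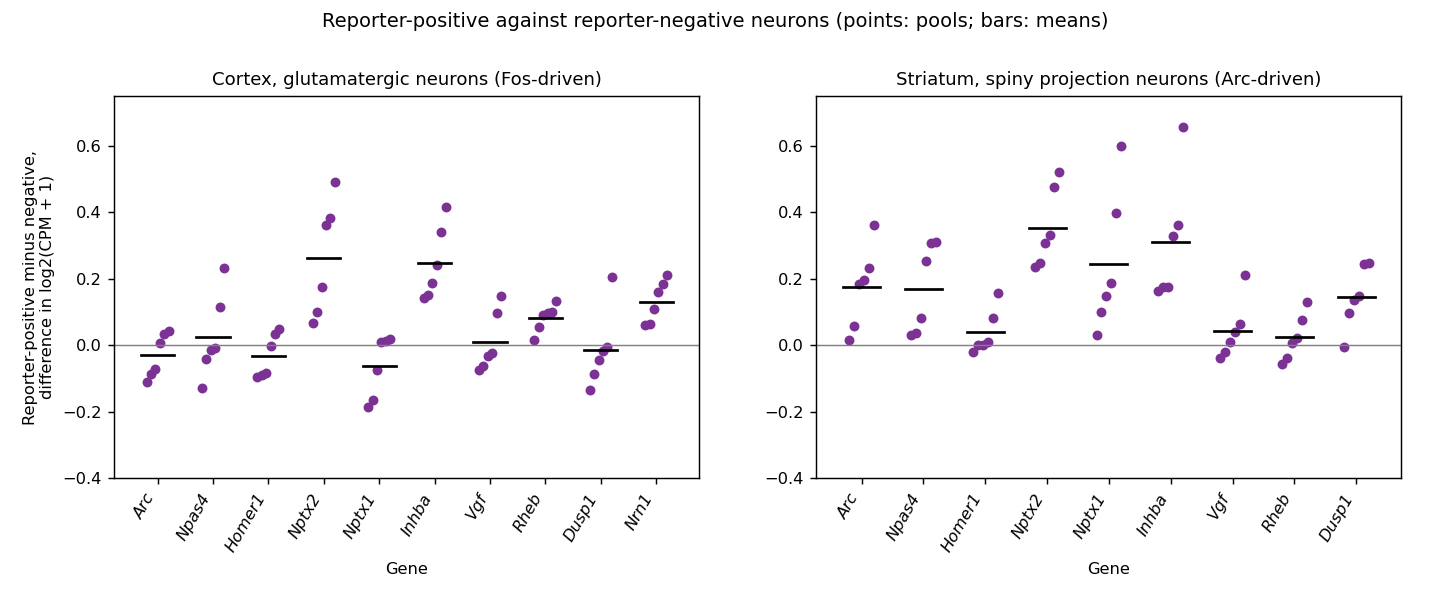
Reporter-positive minus reporter-negative projection neurons of the same pool, in log2(CPM + 1), 6 points a gene with bars at the means, cortex on the left and striatum on the right. Nptx2 and Inhba lie above 0 in all 6 pools of both regions, Nrn1 and Rheb in all 6 of cortex, and Arc and Npas4 in all 6 of striatum. Nrn1 is left out in striatum for its few UMIs.

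In cortex the differences of Nptx2, Inhba and Nrn1 were smaller within kinds of neuron, while that of Rheb stayed at 0.10. Near-projecting neurons made up 7.35% of negative and 2.74% of positive neurons on average, with ranges of 5.75% to 10.3% and 1.91% to 5.03% that do not overlap. They have almost no Nptx2 or Inhba, but the highest Nrn1 of the named cortical subclasses (671.4 CPM). Layer 2/3 neurons, with more Inhba and Nrn1 but less Nptx2 than layer 6 corticothalamic neurons, were 17.6% of negative and 21.6% of positive cells. The part of this makeup in the smaller differences was not tested. Compared within subclass and pool, which leaves out the unnamed 41.9% of negative and 44.2% of positive neurons, Nptx2 was 0.06 (adjusted p = 0.680), Inhba 0.03 (adjusted p = 0.951) and Nrn1 0.05 (adjusted p = 0.634), and only Rheb was called (0.10, adjusted p = 0.0204). Within pool and cluster, unnamed clusters included, Nrn1 (0.10, adjusted p = 0.00133) and Rheb (0.10, adjusted p = 3.5e-05) were called, and Nptx2 (0.09, adjusted p = 0.151) and Inhba (0.06, adjusted p = 0.676) were not. These blocks come from the same mice, so their p-values are too small.

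Depth moved with the reporter as well. The median UMIs of positive cortical neurons exceeded those of negative ones in 6 of 6 pools, as with 7710 against 5450 in control replicate 1. In blocks of pool and depth class (the neurons of a pool split into 3 by total UMIs), Arc was 0.10 (adjusted p = 0.0470) and Npas4 0.105 (adjusted p = 0.0165) in cortex and both were called, beside Nptx2, Inhba and Nrn1, while Rheb was not (0.03, adjusted p = 0.601). The depth blocks too come from the same mice, so their p-values are too small. With every neuron thinned to 1000 UMIs before it was called positive, no member passed in either region.

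In striatum the makeup of the 2 groups was nearly alike, with D1 neurons 40.4% of negative and 40.9% of positive cells and D2 neurons 48.1% and 48.2%. Median depths were closer than in cortex, as with 3592 and 3608 UMIs in control replicate 1, but higher in positive cells in 6 of 6 pools. In blocks that split a pool the p-values are again too small, since these blocks share mice. All 5 members were still called in blocks of pool and subclass and of pool and depth class. In blocks of pool and cluster Nptx2 (0.34), Inhba (0.28) and Npas4 (0.18) were, whereas Arc (0.16, adjusted p = 0.06004) and Dusp1 (0.13, adjusted p = 0.0887) were not.

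**Figure D5:**
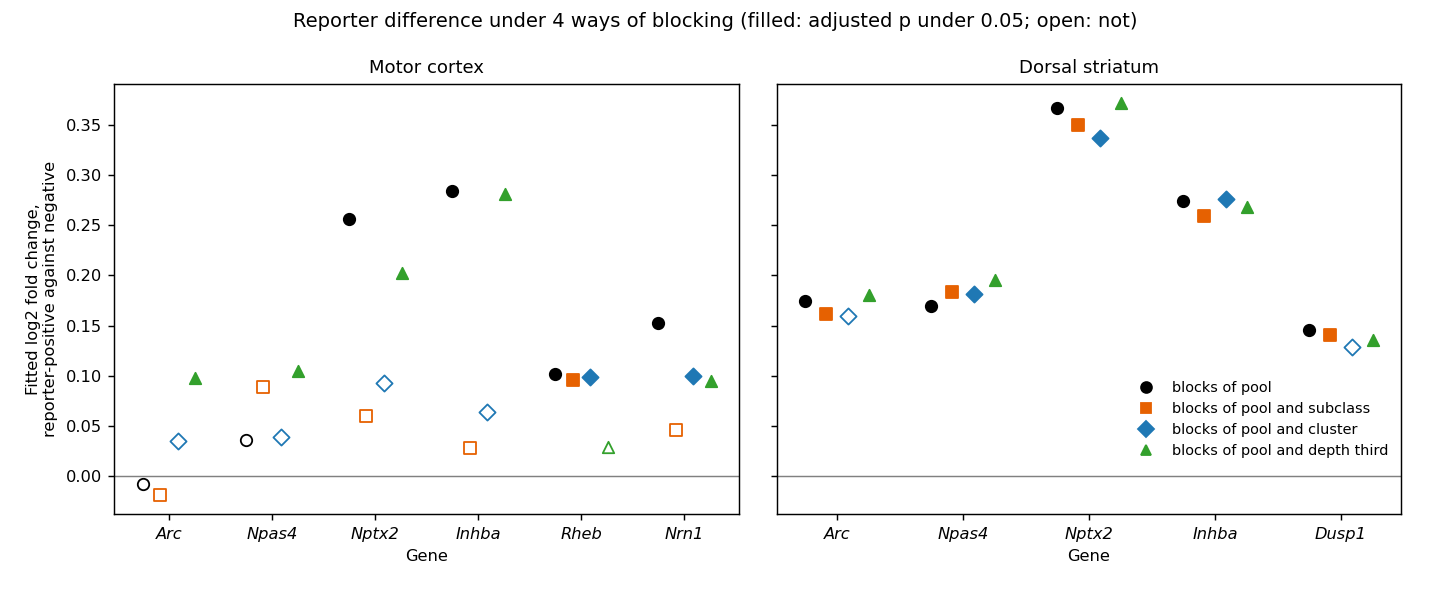
Fitted log2 fold change of reporter-positive against negative neurons under 4 ways of blocking, filled where the adjusted p is under 0.05. Blocks that split a pool share mice, so their p-values are too small. In cortex Nptx2 is 0.26 in blocks of pool and 0.06 within subclass, and Inhba 0.28 and 0.03, whereas in striatum Nptx2 stays between 0.34 and 0.37 and Inhba between 0.26 and 0.28.

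The reporter difference itself was compared between regions over all 12 pools, a comparison added after the data were seen. Of 10 members 1 was called, against 1.25% of all genes. Arc was lower in cortex minus striatum by a log2 value of -0.20 (SE 0.05, adjusted p = 0.0198 by edgeR), and Npas4 was at -0.15 (adjusted p = 0.102). In blocks of pool and depth class the Arc value was -0.07 (adjusted p = 0.732). Nptx2 (-0.13) and Inhba (-0.01) were not called. In blocks of pool, 1 of the 10 members had a value above 0 (median -0.133), against 45.9% of all genes (median -0.015). Of 43 other activity-induced genes tested, 6 were called lower and 0 higher, and 8 had a value above 0 (median -0.076). The lower values in cortex were thus not particular to Arc.

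Genes that act with the members were read from lists of partners, with most not called. These values are from blocks of pool alone, and in cortex positive and negative cells differed in subclass makeup and depth. Values of partners within subclass are not given here. In cortex Nptxr, the membrane-bound pentraxin, was higher in positive cells (0.13, adjusted p = 1.7e-05) and the AMPA receptor subunit Gria4 lower (-0.16, adjusted p = 0.00370), 2 of 6 in that list, where 8.18% of all genes were called in cortex. Of the activin partners 2 of 12 were called in cortex and 1 of 11 in striatum, where 0.406% of all genes were called. Fst, the secreted inhibitor of activin, was higher in cortical (0.48, adjusted p = 4.2e-06) and lower in striatal positive cells (-0.42, adjusted p = 0.00350), and the receptor Acvr1c was higher in cortex (0.17, adjusted p = 0.0409). Of the 9 Rheb partners 2 were called in cortex, both lower. They were Tsc1 (-0.13), part of the complex that inactivates Rheb, and Rptor (-0.15), an mTORC1 subunit. Of the 5 Arc partners 1 was called there, Sh3gl3 (-0.17), which binds Arc. No partner of Npas4 or Dusp1 was called in either region, and in striatum Fst was the only partner called by edgeR.

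Among the 44 other activity-induced genes, 14 of 40 tested were called higher and 0 lower in striatal positive cells, and 14 higher and 1 lower of 43 in cortex, beside 0.406% and 8.18% of all genes called. Their medians were 0.17 and 0.07, against 0.00 for all genes in both regions. These counts are from blocks of pool with unthinned counts, and thinning left far fewer genes called in all in each region. Btg2 (0.43) and Nr4a2 (0.33, not called) had the highest values in striatum and Ptgs2 (0.35) and Bdnf (0.31) in cortex, and Dusp5 (-0.30) was the gene called lower in cortex. Of the dissociation and heat shock genes 3 of 16 were called higher in each region, beside the same 0.406% in striatum and 8.18% in cortex. The 3 in striatum, Junb, Fos and Egr1, are all in the activity-induced list too, and so is Junb among the 3 in cortex.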

How the data were processed

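Droplet-based 3' RNA sequencing of 23 libraries was read from the UMI counts that the authors deposited, unnormalized matrices of 54235 features. The submitters' processing notes name Cell Ranger 3.1.0 and the builds GRCm38 and mm10, and the matrix headers name software version 3.0.2. Library totals were 5260446 to 30470621 UMIs. Cells needed 500 or more genes and 1000 or more UMIs, with mitochondrial UMIs no higher than 20%, and 5103 presumed doublets (0.8% per 1000 cells, Scrublet) were removed, leaving 98612. Cells were clustered with scanpy 1.11.5 (2000 variable genes, 40 principal components, 20 neighbours, Leiden resolutions 1.5 and 1.0), without the members, and named from markers. Classes with at least 20 cells in a pool were summed per pool.

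Sums were tested with edgeR 4.0.16 (quasi-likelihood, TMM, filterByExpr), with p-values Benjamini-Hochberg adjusted over all genes of a class and comparison at 0.05. Stage fits carried the barcode class, and reporter and hemisphere fits the pool as a block. No fit imputed a pool, and pools were dropped only in the alternatives that leave out 1 at a time. DESeq2 1.42.0 and other settings were alternatives. Only the stage fit, for late against control in projection neurons, was run on simulated counts. Those counts had the same spread for every gene and no barcode class effect. The reporter, hemisphere and region fits were not simulated. CPM levels used no test. Named with values were Arc and Npas4 in every comparison made in projection neurons (stage by region was tested in other classes), members that were called, the member with the smallest p in projection neurons, and the 3 genes most like each member, apart from a few genes that are not reported here. Genes of the other lists are given by counts, and some of those called or with the highest or lowest fold changes by name. The members and lists were chosen with earlier results of these data known.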

Additional observations from a re-analysis of the deposited data

Results flagged for a closer look

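Arc differed between regions in its reporter difference, by a test of the difference itself. The log2 value, cortex minus striatum, was -0.20 (SE 0.05, adjusted p = 0.0198 by edgeR over 12 pools), in a comparison added after the data were seen. Arc was higher in reporter-positive cells in 6 of 6 striatal pools and in 3 of 6 cortical pools. The value was -0.19 with DESeq2 (adjusted p = 0.115), -0.07 in blocks of pool and depth class (adjusted p = 0.732) and -0.01 with positive cells defined by 2 UMIs (adjusted p = 0.988), none of which passed. Leaving out a pool gave -0.225 to -0.15, and it did not pass without striatal control replicate 2 (adjusted p = 0.195), striatal early replicate 2 (adjusted p = 0.0915) or cortical control replicate 2 (adjusted p = 0.0922). Region and driver line cannot be told apart, and Arc drives Cre in the striatal line. The direction was not particular to Arc, since 1 of the 10 members had a value above 0 (median -0.133, all genes -0.015). Of 43 other activity-induced genes 6 were called lower and 0 higher, beside 1.25% of all genes called.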

How the results depend on the processing

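No paired analysis was possible between stages because replicate numbers only follow the order of accessions, and within a region the batches give each comparison with control 1 pair of pools, and late against early none. Reporter and hemisphere fits have the pool as a block as given. In striatum the 5 members called by reporter became 2 with DESeq2, 3 in blocks of pool and cluster and 0 when thinned to 1000 UMIs, and 2 to 5 without a pool in turn. In cortex the 4 became 2 by cluster, 1 by subclass and 0 when thinned, and stayed 4 without any pool. Thinning left 7 striatal and 15 cortical genes called in all, after both the counts and the cells called positive had changed. The 1 member differing by region became 0 with DESeq2, by depth class and at 2 UMIs (0 to 2 without a pool). By stage, counts of 0 became 1 in striatum for late against control with RLE factors and 1 with no filter (Dusp1), 1 for late against early with no filter (Arc), and 1 in cortex for late against early with no filter (Nrn1 in interneurons). Without a pool they were 0 to 2, 1 to 1 and 0 to 2 in striatum and 0 to 3, 1 to 3 and 0 to 1 in cortex, in the order early-control, late-control and late-early. Most of those cortical calls were in endothelial cells and pericytes. Each stage fit without a pool leaves a stage with a single pool. Between hemispheres the cortical count was 1 with no filter (Vgf in endothelial cells), and 0 to 0 without a pool, as for the stage by region comparison. The cause was not tested.

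Apart from Arc by depth class, signs turned for members whose turned value was not called. P-values from blocks that split a pool are too small, since these blocks share mice. Arc by reporter in cortex was 0.00 with RLE factors, 0.035 by cluster, 0.098 by depth class (adjusted p = 0.0470 by edgeR, a call), 0.183 thinned, 0.123 at 2 UMIs, 0.162 within layer 2/3 and -0.028 to 0.018 without a pool. Within layer 2/3 Nptx2 was -0.064 and Inhba -0.047, within layer 6 corticothalamic neurons Nrn1 was -0.067, and thinned Rheb was -0.162. Arc in cortex was -0.006 for late against control with no filter and 0.101 for late against early without the barcode class. Without that class, Npas4 in striatum was 0.187, 0.007 and -0.180 for the 3 stage comparisons in the order above, and in cortex 0.184 (early-control) and -0.035 (late-early). Without a pool, Arc ran from -0.121 to 1.265, -0.686 to 0.707 and -0.565 to 0.819 in cortex, and -0.722 to 0.125 for early against control in striatum. Npas4 ran from -0.228 to 0.216 (early) and -0.005 to 0.373 (late, both with control as base) in cortex, and from -0.5 to 0.044, -0.328 to 0.230 and -0.372 to 0.187 in striatum. Nptx2 in striatum ran from -0.609 to 0.055 for early against control. Over single members 360 alternatives kept direction and call, 38 turned sign, 50 lost and 12 gained a call. With 2 pools a stage, absence of a call shows no absence of change.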
